A study of Mus musculus with 8 samples.

Results

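Kinesins, the microtubule motors named Kif, were examined in mouse liver on 8 Agilent 2-colour arrays. The members were the genes whose probe carries 1 symbol made of Kif and a number, with or without a letter. This gave 33 of the 19087 genes that have such a probe. They were set in 3 groups by known role: 11 mitotic kinesins, 13 transport kinesins and 9 others. A gene was tested where at least 1 of its probes had a value on all 8 arrays, which held for 27 members (8 mitotic, 12 transport and 7 others) of 15346 genes. Kif17, Kif18b, Kif27, Kif2b, Kif2c and Kif6 were not tested.

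The mice were female and male C3H/HeN, 8 weeks old. They were injected intraperitoneally with recombinant murine IL1-beta, an inflammatory cytokine, at 25 µg/kg, or with vehicle. Injections were given every second day over 2 weeks, and livers were taken 1 h after the last one. The 4 groups, called below by sex and treatment as labelled, are female IL1-beta, male IL1-beta, female control and male control, with 2 arrays each, labelled as biological replicates. Nothing else is said of the source of the replicates or of pooling, so p-values measure only the spread between these arrays. Per the labels, liver RNA was in Cy5 on every array. Universal mouse reference RNA, a pool of 11 cell lines, was in Cy3. Values below are log2 ratios of Cy5 over Cy3, so a value of -1 is a ratio 2-fold lower than in the pool. Ratios of different genes do not compare their amounts of RNA.

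The control arrays went against their labels. Hepatocyte markers stood far above the pool in the IL1-beta groups alone: the median of the 8 measured lay at 5.66 and 5.63 in IL1-beta females and at 5.88 and 5.97 in IL1-beta males, against 0.01 and -0.28 in control females and 0.08 and 0.19 in control males. Across the tested genes, IL1-beta arrays correlated with each other at 0.942 to 0.973, and with control arrays at -0.182 to 0.174. Control arrays of unlike sex correlated at -0.722 to -0.478. Xist, the X-inactivation RNA, read 2.11 and 1.52 in IL1-beta females and -4.32 and -4.36 in IL1-beta males. It read -4.94 and -4.57 in controls labelled female, against 5.40 and 5.78 in controls labelled male. The Y-linked Eif2s3y read -3.39 and -3.95 in IL1-beta females and 2.99 and 3.10 in IL1-beta males. It read 10.03 and 10.80 in controls labelled female and -9.17 and -10.56 in controls labelled male. The direction of the control arrays is therefore unsettled, and each comparison that uses them is also given with their sign turned. Turning the sign does not give them a liver profile, since their hepatocyte medians lie near the pool level in either direction. Whether they hold liver over the pool, as labelled, is not settled either. The SD over genes was 1.99 to 2.07 on the IL1-beta arrays and 0.66 to 0.74 on the control arrays. Signal over background is unknown.

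Kinesins hydrolyse ATP to step along microtubules. Mitotic members build the spindle, move chromosomes and complete cytokinesis, and their transcripts rise in dividing cells before mitosis. Transport members carry vesicles, organelles and ciliary cargo in resting cells as well. Adult hepatocytes are long-lived epithelial cells that seldom divide, and their bile canaliculi and secretory routes depend on microtubule traffic.

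Promoters of the 5 mitotic members with the lowest ratios on the IL1-beta arrays are shown first, because these members lay low together and most of their genes share a short element near the start site. Many genes of late cell cycle carry such an element, the cell cycle homology region (CHR), through which the MuvB complexes repress them in resting cells. Each line runs 5′ to 3′ on the gene's strand, from 250 bases before the start of the transcript through the 30 bases from the start base on, from RefSeq on GRCm38.p6. Capitals mark matches, on either strand, to the CHR (TTTGAA or TTCGAA), the CCAAT box (CCAAT) and an E2F site (TTTGGCGC, TTTCCCGC or TTTCGCGC).
Kif18a (chr2:109280488-109280767, plus strand): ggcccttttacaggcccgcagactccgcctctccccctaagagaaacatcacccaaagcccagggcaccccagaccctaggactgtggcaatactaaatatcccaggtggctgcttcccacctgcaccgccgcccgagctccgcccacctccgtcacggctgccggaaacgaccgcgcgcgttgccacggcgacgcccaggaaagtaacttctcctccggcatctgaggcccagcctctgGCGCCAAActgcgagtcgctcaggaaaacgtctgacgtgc
Kif11 (chr19:37376132-37376411, plus strand): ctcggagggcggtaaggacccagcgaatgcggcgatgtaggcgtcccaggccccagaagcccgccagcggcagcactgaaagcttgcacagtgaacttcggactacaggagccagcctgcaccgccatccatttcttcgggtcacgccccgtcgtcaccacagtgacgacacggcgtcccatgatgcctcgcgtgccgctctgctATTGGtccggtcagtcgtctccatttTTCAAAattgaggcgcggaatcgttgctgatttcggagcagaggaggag
Kif20b (chr19:34922108-34922387, plus strand): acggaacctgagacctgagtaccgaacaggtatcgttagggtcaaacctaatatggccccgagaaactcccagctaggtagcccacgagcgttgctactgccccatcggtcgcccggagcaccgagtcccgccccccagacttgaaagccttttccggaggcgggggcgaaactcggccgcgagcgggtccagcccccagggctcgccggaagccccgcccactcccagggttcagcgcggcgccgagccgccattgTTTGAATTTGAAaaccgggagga
Kif4 (chrX:100625815-100626094, plus strand): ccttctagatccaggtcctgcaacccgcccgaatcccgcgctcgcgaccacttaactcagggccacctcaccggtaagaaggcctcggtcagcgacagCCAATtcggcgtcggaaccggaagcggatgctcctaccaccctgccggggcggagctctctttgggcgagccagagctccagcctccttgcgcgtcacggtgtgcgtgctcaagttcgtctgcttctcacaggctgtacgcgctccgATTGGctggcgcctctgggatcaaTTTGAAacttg
Kif15 (chr9:122950831-122951110, plus strand): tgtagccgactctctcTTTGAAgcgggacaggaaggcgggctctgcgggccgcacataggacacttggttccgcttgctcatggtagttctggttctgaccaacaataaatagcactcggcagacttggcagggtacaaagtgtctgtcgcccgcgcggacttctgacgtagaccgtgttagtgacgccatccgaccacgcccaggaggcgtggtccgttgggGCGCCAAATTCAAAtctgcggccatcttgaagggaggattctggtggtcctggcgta

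Positions below count the first base of a match from the start base, which is 0. Kif11 had a CHR at -19 and a CCAAT box at -45. Kif15 had a CHR at -19 directly after an E2F site at -27, in the capital run GCGCCAAATTCAAA, and a further CHR at -234. Kif20b had 2 adjoining copies of the CHR, at 7 and 13, and Kif4 had one at 19, with CCAAT boxes at -152 and -5. The promoter of Kif18a held no CHR and an E2F site at -10. Of the mitotic members, 10 had a RefSeq promoter in the table used, of 28 kinesins in all. Over the 250 bases before and 50 from the start base on, the CHR was found in 8 of 10 mitotic, 1 of 10 transport and 2 of 8 other members, against 21.7% of 27025 genes. Within 30 bases of the start, a distance chosen after the positions were seen, it was found in 7 of 10 mitotic members (Kif11, Kif15, Kif18b, Kif20b, Kif22, Kif23 and Kif4), 0 of 10 transport members and 1 of 8 others, Kif24. The share of all genes was 4.02%. The CCAAT box was found in 6 of 10 mitotic, 3 of 10 transport and 3 of 8 other members, against 41.1% of all genes. The E2F site was found in Kif15 and Kif18a alone, against 2.12% of all genes. These matches describe the sequence. Whether any protein binds there was not measured.

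All 8 tested mitotic kinesins were at least 4-fold lower in liver than in the cell-line pool on all 4 IL1-beta arrays. Among all tested genes 6.97% were that low, and 2 of 12 transport and 1 of 7 other members. At a 2-fold limit the counts were 8 of 8 mitotic, 2 of 12 transport and 2 of 7 other members, against 18.9% of all genes. No kinesin was at least 4-fold higher on all 4, against 10.5% of all genes. This is a level against a common pool, so no test was made, and it bears on liver of IL1-beta mice as against cell lines, not on IL1-beta. In whole tissue, fewer cells of a type and less RNA per cell cannot be told apart.

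**Figure D1:**
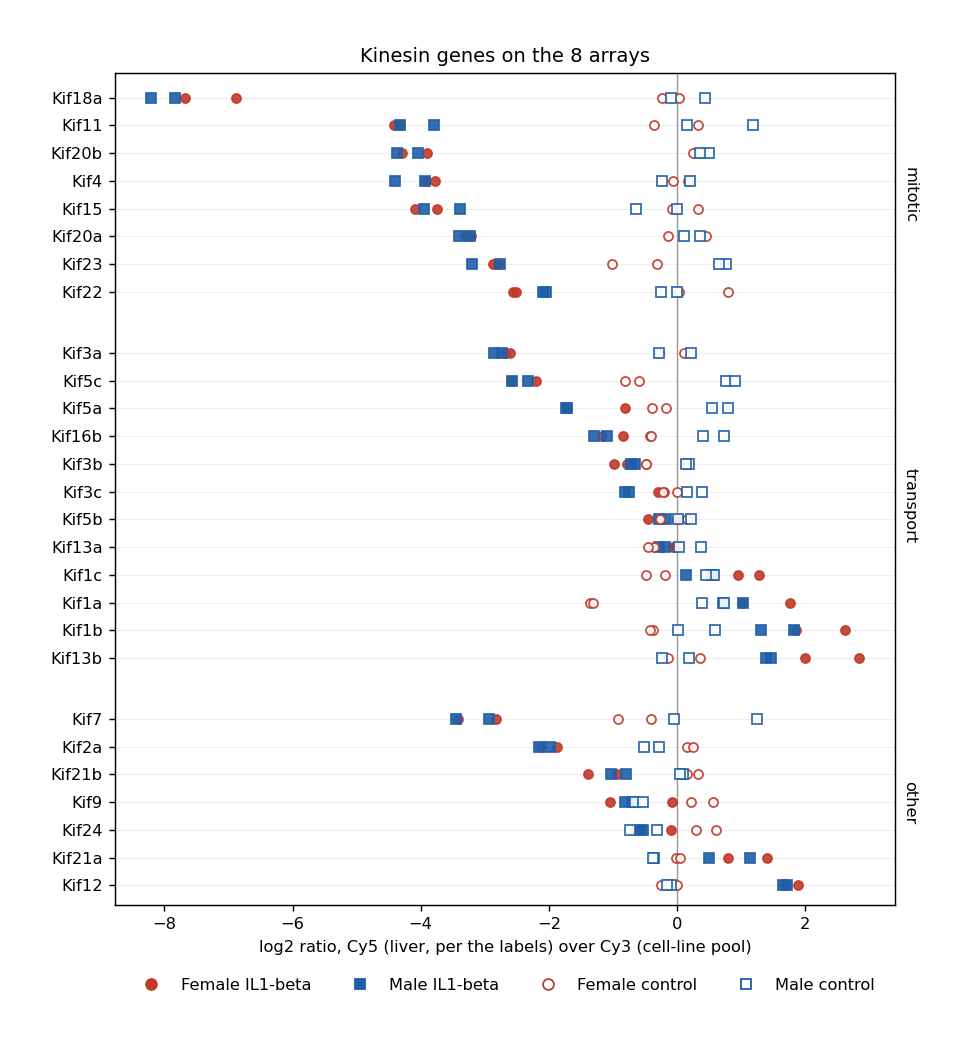
Log2 ratio of Cy5 (liver, per the labels) over Cy3 (cell-line pool) of the 27 tested kinesins on each of the 8 arrays, in rows by role and by mean on the IL1-beta arrays. Filled points are IL1-beta arrays and open points control arrays, circles female and squares male. Filled points of the mitotic members span -8.21 to -2.05, and their open points span -1.01 to 1.19.

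Kif18a, which damps the movements of chromosomes at the metaphase plate, had the lowest ratio of all 15346 tested genes. It read -6.88 and -7.67 in IL1-beta females and -7.84 and -8.21 in IL1-beta males, against -0.24 and 0.03 in control females and 0.44 and -0.10 in control males. Its mean of -7.65 ± 0.561 (SD, n = 4 IL1-beta arrays) is 201-fold below the pool. The value rests on 1 probe. The second Kif18a probe had a value on 2 IL1-beta arrays only, -1.42 (female 2) and 0.54 (male 2), so the size of the gap is not shared by both probes.

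Kif11, which pushes the spindle poles apart and is also called Eg5, read -4.42 and -4.32 in IL1-beta females and -3.79 and -4.32 in IL1-beta males, against 0.33 and -0.36 in control females and 1.19 and 0.15 in control males. Kif15, which can keep the spindle bipolar beside Kif11, read -3.75 and -4.09 in IL1-beta females and -3.39 and -3.95 in IL1-beta males. On the control arrays Kif15 read 0.33 and -0.08 (female) and -0.65 and 0.00 (male). These partners in spindle assembly therefore lay close together, at mean ratios of -4.21 and -3.80. A further probe of Kif15, with zeros on 3 control arrays, averaged -0.79 on the IL1-beta arrays, and the other probes of Kif11 averaged -2.19 and -4.94.

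Kif4, a chromokinesin that shapes chromosomes and the central spindle, read -3.92 and -3.77 in IL1-beta females and -3.93 and -4.40 in IL1-beta males. Its control values were -0.06 and 0.17 (female) and 0.20 and -0.24 (male). Kif22, the chromokinesin Kid, which pushes chromosome arms towards the spindle equator, was the highest of the mitotic members, with -2.56 and -2.52 in IL1-beta females and -2.05 and -2.10 in IL1-beta males. Its control values were 0.03 and 0.80 (female) and -0.01 and -0.26 (male). No IL1-beta value of Kif22 overlapped its control values, which largely repeats its level against the pool.

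The 3 members that work at the midzone in cytokinesis were low as well. Kif20b read -3.90 and -4.30 in IL1-beta females and -4.04 and -4.37 in IL1-beta males, against 0.25 and 0.35 in control females and 0.49 and 0.35 in control males. Kif20a, which brings the chromosomal passenger complex to the midzone, read -3.22 and -3.31 in IL1-beta females and -3.23 and -3.40 in IL1-beta males, against -0.15 and 0.45 in control females and 0.36 and 0.11 in control males. Its SD over the 4 IL1-beta arrays, 0.0832, was the smallest of the 8. Kif23, the motor of the centralspindlin complex, read -2.88 and -2.80 in IL1-beta females and -2.76 and -3.20 in IL1-beta males. Its control values were -1.01 and -0.32 where labelled female and 0.76 and 0.65 where labelled male, so Kif23 alone among these 3 differed in sign between the control groups.

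The untested mitotic members Kif2c and Kif18b had values on all 4 IL1-beta arrays but not on all control arrays. Kif2c, which takes microtubules apart at centromeres, read -3.42 and -3.36 in IL1-beta females and -3.29 and -3.69 in IL1-beta males. Kif18b, which acts on astral microtubules, read -2.41 and -2.51 in IL1-beta females and -2.39 and -2.74 in IL1-beta males. Both thus lay in the range of the 8 tested members. Kif2b, a relative of Kif2c at kinetochores, had a value on 1 IL1-beta array (0.81, female 2). Of all 73 kinesin probes, 13 values were listed at exactly 0, taken here as no measurement, on the IL1-beta arrays and 66 on the control arrays.

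Genes of mitosis outside the family were low on the same arrays. Of a list of 36, 31 were tested and 30 were at least 2-fold lower than the pool on all 4 IL1-beta arrays. Among all genes 18.9% were that low. The list medians were -3.52 and -3.49 in IL1-beta females and -3.49 and -3.80 in IL1-beta males. The lowest was Bub1, a spindle checkpoint kinase, at a mean of -6.06. The exception was Spc24, a kinetochore subunit, at -0.50. The 7 measured markers of proliferation, all of which are in that list and so are no separate evidence, had medians of -3.95 and -4.35 in IL1-beta females and -4.53 and -4.58 in IL1-beta males. Control medians of these 7 were -0.91 and 0.22 (female) and 0.55 and -0.05 (male). The part of cell division in the kinesin values was not tested.

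Transport kinesins spread around the pool level instead. On the IL1-beta arrays their medians were -0.12 and -0.38 (female) and -0.50 and -0.47 (male), against mitotic medians of -3.83 and -3.93 (female) and -3.59 and -4.14 (male). The mitotic median minus the transport median averaged -3.62 ± 0.112 on the female and -3.38 ± 0.406 on the male IL1-beta arrays (SD, n = 2 each). On the control arrays this gap was 0.30 and 0.52 (labelled female) and -0.06 and -0.24 (labelled male). With every member measured on the IL1-beta arrays and all its probes, the gap was -2.99 (female) and -2.85 (male). The gap is a description, since members of a role are not replicates.

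**Figure D2:**
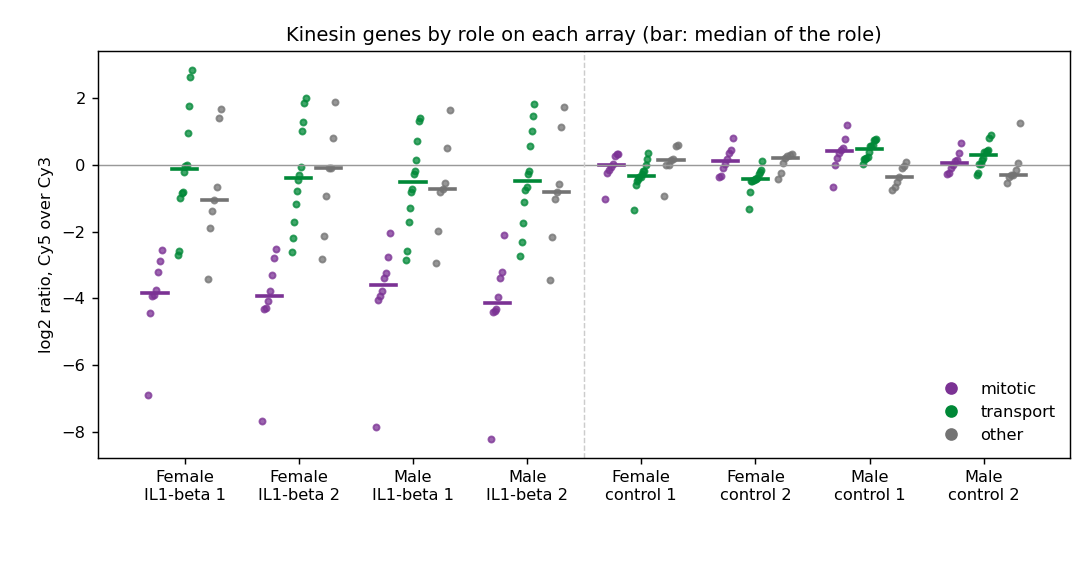
Log2 ratios of the tested kinesins on each array, by role (8 mitotic, 12 transport, 7 other members). Points are genes and bars the median of a role, with IL1-beta arrays left of the dashed line and control arrays right of it. Mitotic medians lie at -4.14 to -3.59 on the IL1-beta arrays, where transport medians lie at -0.50 to -0.12.

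The kinesins highest in liver against the pool were Kif13b, Kif1b and Kif12: 2 of 12 transport and 1 of 7 other members were at least 2-fold higher on all 4 IL1-beta arrays, 3 of 27 in all against 17.8% of all genes. Kif13b, which carries membrane proteins and scaffolds to the cell surface, read 2.84 and 1.99 in IL1-beta females and 1.39 and 1.46 in IL1-beta males, against 0.36 and -0.15 in control females and 0.18 and -0.24 in control males. The Kif13b values rest on 1 probe. Its other probe had a value on 1 array only, -0.59 (IL1-beta female 1), on the opposite side of the pool. Kif1b, a motor of mitochondria and of synaptic vesicle precursors in neurons, read 2.62 and 1.85 in IL1-beta females and 1.30 and 1.82 in IL1-beta males. Its control values were -0.37 and -0.43 (female) and 0.59 and 0.02 (male). For both genes each female IL1-beta value was above each male one, for Kif1b narrowly (1.85 against 1.82). The female and male IL1-beta arrays also did not overlap for 36.8% of all genes. Neither sex difference passed (limma adjusted p = 0.45 for Kif13b and 0.703 for Kif1b).

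Kif1a, an axonal motor of synaptic vesicle precursors, read 1.76 and 1.01 in IL1-beta females and 0.71 and 1.02 in IL1-beta males. On the control arrays it read -1.36 and -1.32 where labelled female and 0.73 and 0.39 where labelled male. Kif1c, which moves vesicles between endoplasmic reticulum and Golgi, read 0.95 and 1.28 in IL1-beta females and 0.13 and 0.55 in IL1-beta males, against -0.19 and -0.48 in control females and 0.57 and 0.45 in control males. All 3 members of the Kif1 family thus lay above the pool on the IL1-beta arrays, as means over their probes. In IL1-beta males 1 probe of Kif1c read -0.54 and -0.15 and another -0.24 and 0.22. The third Kif1c probe read 1.18 and 1.59 there. Of the neuron markers, 4 of 6 were measured, with medians of 0.04 and 0.36 in IL1-beta females and 0.40 and 0.06 in IL1-beta males, and with means from -2.70 (Stmn2) to 3.86 (Syt1). Their part in the Kif1a values was not tested.

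The conventional kinesin heavy chains differed from each other. Kif5b, the form found in most tissues, was at the pool level, with -0.01 and -0.46 in IL1-beta females and -0.17 and -0.28 in IL1-beta males, against 0.16 and -0.27 in control females and 0.01 and 0.21 in control males. Kif5a, mainly neuronal, read -0.81 and -1.72 in IL1-beta females and -1.72 and -1.74 in IL1-beta males, against -0.17 and -0.39 in control females and 0.55 and 0.80 in control males. Kif5c, also mainly neuronal, read -2.59 and -2.20 in IL1-beta females and -2.57 and -2.32 in IL1-beta males, against -0.59 and -0.82 in control females and 0.76 and 0.90 in control males. All 3 were below the pool on every IL1-beta array, Kif5b by 0.46 at most. A second Kif5c probe, at 0 on 1 control array and so left out, averaged 0.20 on the IL1-beta arrays, 2.62 above the first.

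The means of the motors of intraflagellar transport were below the pool, although 1 probe of Kif3b (mean 0.11) and 1 of Kif3c (mean 1.30) were above it. Kif3a, the shared subunit of heterotrimeric kinesin, read -2.69 and -2.61 in IL1-beta females and -2.85 and -2.74 in IL1-beta males, against -0.28 and 0.11 in control females and 0.22 and -0.29 in control males. Kif3b, its partner, was closer to the pool, with -0.98 and -0.78 in IL1-beta females and -0.72 and -0.66 in IL1-beta males. Its control values were -0.48 and -0.49 (female) and 0.19 and 0.13 (male). Kif3c, which can take the place of Kif3b, read -0.21 and -0.30 in IL1-beta females and -0.81 and -0.75 in IL1-beta males, against -0.01 and -0.22 in control females and 0.16 and 0.39 in control males. The IL1-beta values of Kif3a and Kif3b overlapped no control value, whereas the IL1-beta values of Kif3c overlapped those of control females. The share of all genes without such overlap was not counted. Since control values lie near 0, a lack of overlap largely repeats the level against the pool. Of 22 genes of the ciliary trains and their dynein, all tested, 13 were at least 2-fold lower than the pool on all 4 IL1-beta arrays and 0 were 2-fold higher. Among all genes 18.9% were that low and 17.8% that high. Their means ran from -3.46 (Dync2li1) to 1.15 (Ift20).

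The endosomal motors Kif16b and Kif13a were lower than or near the pool. Kif16b, a motor of early endosomes, read -0.84 and -1.18 in IL1-beta females and -1.29 and -1.10 in IL1-beta males, against -0.42 and -0.41 in control females and 0.73 and 0.40 in control males. Kif13a, which carries the mannose-6-phosphate receptor, read -0.04 and -0.06 in IL1-beta females and -0.28 and -0.19 in IL1-beta males, against -0.36 and -0.46 in control females and 0.37 and 0.03 in control males. Kif17, a motor of dendrites and cilia that was not tested, read -0.85 and -0.67 in IL1-beta females and -0.49 and -0.61 in IL1-beta males. As means over probes, these 3 stayed within 1.29 of the pool on each IL1-beta array. Single probes lay further off. The probes of Kif16b averaged -2.04 and -0.17, and 1 probe of Kif17 read -1.78 and -1.73 in IL1-beta females.

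In the remaining group Kif12 and Kif7 lay at opposite ends. Kif12, a kinesin of kidney and liver epithelium in which human variants cause cholestasis, read 1.68 and 1.89 in IL1-beta females and 1.65 and 1.72 in IL1-beta males, against 0.00 and -0.25 in control females and -0.10 and -0.16 in control males. Its 4 IL1-beta values spanned less than any other member above the pool, with an SD of 0.105. The cholangiocyte markers, 4 of 5 measured, had medians of -2.07 and -1.99 (female) and -2.30 and -2.34 (male) on the same arrays. Kif7, a regulator of Hedgehog signalling at the tip of the cilium, read -3.42 and -2.82 in IL1-beta females and -2.94 and -3.45 in IL1-beta males, against -0.93 and -0.41 in control females and -0.05 and 1.24 in control males. A second Kif7 probe, with zeros on 3 arrays, read 2.51 and 1.40 on the female and 5.22 on the first male IL1-beta array, the opposite side of the pool.

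Kif2a, which takes microtubules apart in neurons and at spindle poles, read -1.88 and -2.13 in IL1-beta females and -1.99 and -2.16 in IL1-beta males, against 0.16 and 0.25 in control females and -0.51 and -0.29 in control males. Kif21a, which limits microtubule growth at the cell cortex, read 1.40 and 0.80 in IL1-beta females and 0.49 and 1.13 in IL1-beta males, against -0.02 and 0.04 in control females and -0.36 and -0.37 in control males. Its relative Kif21b read -1.39 and -0.94 in IL1-beta females and -0.80 and -1.03 in IL1-beta males, against 0.15 and 0.32 in control females and 0.09 and 0.05 in control males. The side of the pool depended on the probe for Kif21b, whose 3 probes averaged -2.40, -1.78 and 1.06, while the 3 fully measured probes of Kif21a averaged above it. Kif24, which holds back cilia at the mother centriole, read -0.66 and -0.10 in IL1-beta females and -0.53 and -0.58 in IL1-beta males, against 0.60 and 0.30 in control females and -0.74 and -0.31 in control males. Kif9, a kinesin of motile cilia, read -1.05 and -0.08 in IL1-beta females and -0.71 and -0.82 in IL1-beta males, against 0.56 and 0.21 in control females and -0.66 and -0.54 in control males. For both genes the IL1-beta values, taken over both sexes, overlapped those of control males and not those of control females. Within males alone the IL1-beta and control values of Kif9 did not overlap. The untested ciliary members Kif27 and Kif6 averaged -0.10 and -0.07. The 4 values of Kif6 ran from -2.05 to 1.58, an SD of 1.9, so its mean is no level.

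Probes of the same gene set a limit to these values. Of 18 members with 2 or more fully measured probes, 3 had probe means more than 2 log2 units apart on the IL1-beta arrays (16.7%, against 14.8% of 6485 genes). The 2 probes of Kif3c averaged -2.34 and 1.30, those of Kif21b lay between -2.40 and 1.06 and the 4 of Kif1b between 0.95 and 3.55. Probes lay on opposite sides of the pool for 4 members, Kif13a, Kif21b, Kif3b and Kif3c (22.2%, against 30.6% of genes). The mean ratio of Kif3c therefore stands for neither of its probes. All 4 mitotic members with several such probes, Kif20a, Kif20b, Kif23 and Kif4, had every probe mean at -2.74 or below.

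**Figure D3:**
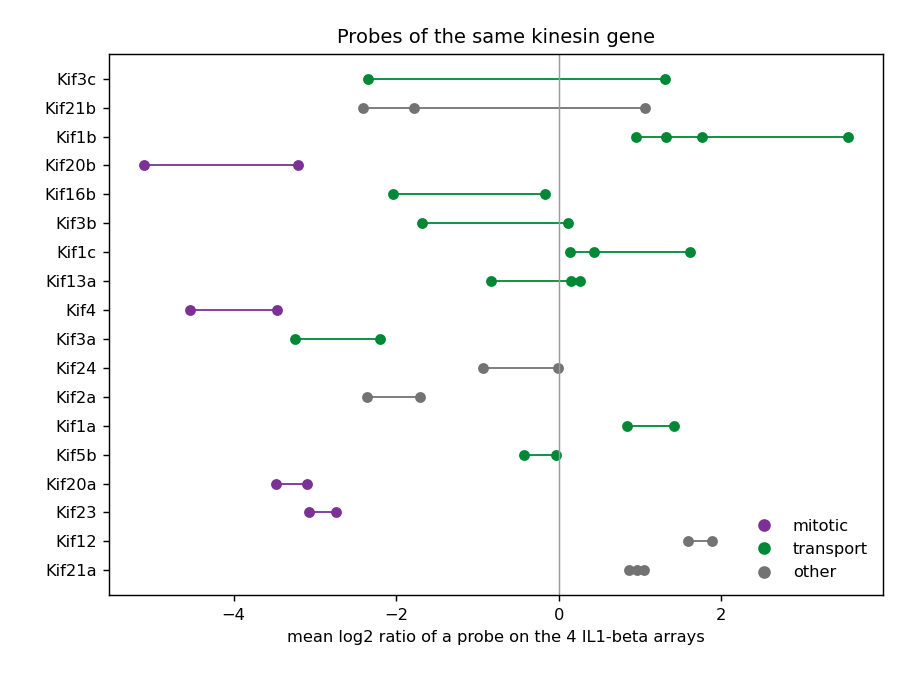
Mean log2 ratio on the 4 IL1-beta arrays of each probe of the 18 kinesins with 2 or more probes measured on all arrays, with genes ordered by the gap between probes. Points are probes and lines join probes of 1 gene. The gap is 3.65 for Kif3c and 0.19 for Kif21a.

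Females and males given IL1-beta differed in no kinesin in limma at an adjusted p under 0.05 (0 of 27, against 0.163% of all tested genes). At an unadjusted p under 0.05 there were 3 of 27, against 8.28% of all genes, which is near the background. These 3 were transport members whose female values were the higher ones. For Kif1c the log2 difference was 0.77 ± 0.23 (SE, 2 arrays of each sex, limma adjusted p = 0.382). For Kif13b it was 0.99 ± 0.33 (adjusted p = 0.45) and for Kif3c 0.53 ± 0.19 (adjusted p = 0.482). For all 3 the female and male arrays did not overlap, as for 10 of 27 members against 36.8% of all genes, which is near the background. The other 24 differences lay between -0.46 (Kif22) and 0.75 (Kif18a), with standard errors up to 0.46. In data simulated for this comparison over 15346 genes, the fit recovered 58% of changes of 2 log2 units and 13% of changes of 1, so a 2-fold sex difference in a kinesin would mostly not be detectable here.

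By role, the median female minus male difference under IL1-beta was 0.08 for mitotic, 0.33 for transport and 0.10 for other members, against -0.01 for all genes. Differences were positive for 5 of 8 mitotic, 10 of 12 transport and 6 of 7 other members. Among all genes 7563 were positive and 7773 negative.

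**Figure D4:**
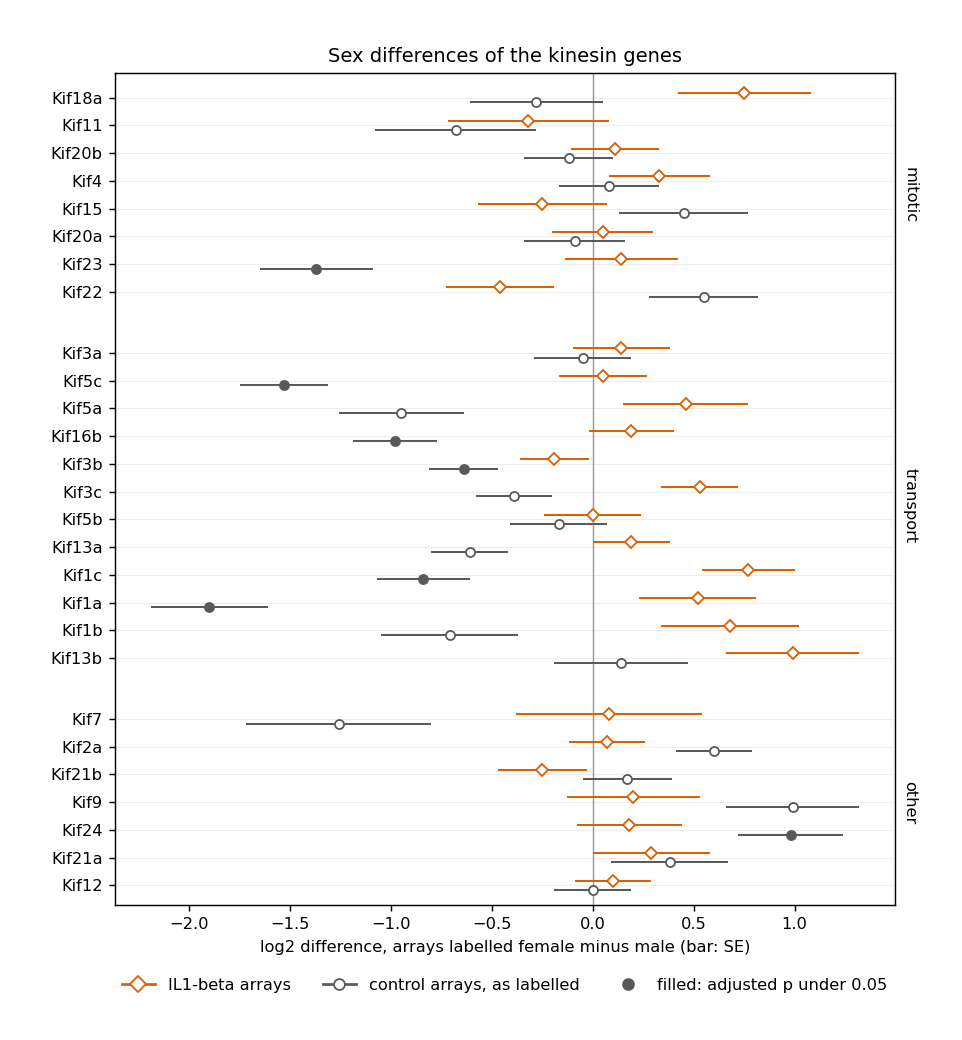
Log2 difference, arrays labelled female minus male, for the 27 tested kinesins on the IL1-beta arrays (diamonds) and on the control arrays as labelled (circles). Bars are standard errors from limma with 2 arrays per group, and filled symbols have an adjusted p under 0.05. Of the control differences 7 are filled, and of the IL1-beta differences 0.

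On the control arrays 7 of 27 members differed between the arrays labelled female and male (limma, adjusted p under 0.05), against 21.4% of all genes. As labelled, 6 were lower in females (12.1% of all genes were) and 1 higher (9.3% of all genes), and turning the sign of the control arrays turns all 7. Of these, 5 were transport members. The log2 difference of Kif1a was -1.90 ± 0.29 (SE, 2 arrays of each sex, limma adjusted p = 0.00624) and that of Kif5c -1.53 ± 0.22 (adjusted p = 0.0051). Kif16b differed by -0.98 ± 0.21 (adjusted p = 0.0205), Kif1c by -0.84 ± 0.23 and Kif3b by -0.64 ± 0.17. The mitotic member Kif23 differed by -1.37 ± 0.28 (adjusted p = 0.0163). Kif24, at 0.60 and 0.30 where labelled female and -0.74 and -0.31 where labelled male, differed by 0.98 ± 0.26 (adjusted p = 0.041). Of the 12 transport members 11 were lower as labelled, with a median of -0.68 against 0.04 for all genes.

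With 1 control array left out, 2 members passed without female control 1 and 3 without female control 2, male control 1 or male control 2. Of all genes, 9.88% to 13.5% then passed. Without male IL1-beta 1 or male IL1-beta 2, 4 members and 16.5% of all genes passed. Kif5c and Kif1a passed with each array left out in turn, while Kif1c did not pass with any array left out. With its second probe, Kif5c differed by -0.74 (adjusted p = 0.0917). The probes of Kif1a also differed here: one read -0.64 and -1.34 on the arrays labelled female against 1.78 and 1.76 on those labelled male, the other -2.07 and -1.30 against -0.32 and -0.99. Some markers of other cells also differed in this contrast, in which 12.1% of all genes were lower and 9.3% higher. As labelled, all 4 measured adipocyte markers were lower in females, with medians of -3.19 and -3.80 in control females against 0.49 and 4.50 in control males. So were 5 of 7 Kupffer cell, 4 of 6 stellate cell, 3 of 6 endothelial and 2 of 4 cholangiocyte markers. Of the neuron markers, 1 of 4 was lower and 1 higher. Of 5 T and B cell markers 2 were lower and 1 higher, and of 3 erythroid markers 0 were lower and 1 higher. Of 8 hepatocyte and 7 proliferation markers 0 passed in either direction. Their part in the kinesin differences was not tested.

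Set against the control arrays, the mitotic kinesins were lower on the IL1-beta arrays in both sexes, 8 of 8 in each. In females 23 of 27 members passed, against 57.2% of all genes, 6 higher (25.8% of all genes) and 17 lower (31.4%). In males 21 of 27 passed, against 61.5%, 4 higher (29.4%) and 17 lower (32.1%). Averaged over the sexes 23 of 27 passed, against 69.2% of all genes, 6 higher (31.6%) and 17 lower (37.6%). Both sexes' differences set arrays with a liver profile against arrays without one, so IL1-beta and this difference between the arrays cannot be told apart. With the control sign turned, 21 members passed in females (62.8% of all genes did), 23 in males (58.1%) and 25 on average (71.3%), and the 8 mitotic members stayed lower in each. Control values are small, so these differences largely repeat the levels above. Kif18a differed by -7.17 ± 0.33 in females and -8.19 ± 0.33 in males (log2, SE, adjusted p = 4.54e-06 and 2.38e-06), and Kif22, the least of the mitotic members in males, by -2.95 ± 0.27 in females and -1.94 ± 0.27 in males (adjusted p = 1.24e-04 and 7.69e-04). Among transport members Kif3a was lower in both sexes, by -2.56 ± 0.24 in females and -2.76 ± 0.24 in males. Kif13b was higher, by 2.31 ± 0.33 in females and 1.45 ± 0.33 in males. Under quantile normalization Kif13b did not pass in females (1.32, adjusted p = 0.0896) or males (1.07, adjusted p = 0.133), nor did Kif22 in males (-0.99, adjusted p = 0.247) or Kif23 in females (-0.85, adjusted p = 0.116). Kif12 was higher by 1.91 ± 0.19 in females and 1.82 ± 0.19 in males.

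Members with larger control values depend on the direction of the control arrays. Kif1a was higher in females by 2.73 ± 0.29 as labelled (adjusted p = 2.43e-04) and by 0.05 with the control sign turned (adjusted p = 0.894). In males it was higher by 0.31 ± 0.29 as labelled (adjusted p = 0.387) and by 1.42 turned (adjusted p = 0.00506). Kif24 in females was at -0.83 ± 0.26 as labelled (adjusted p = 0.0316) and at 0.07 turned (adjusted p = 0.838). Kif1c in males was at -0.17 ± 0.23 as labelled (adjusted p = 0.557) and at 0.85 turned (adjusted p = 0.0172). Kif13a, Kif5b and Kif3c in females passed in neither direction of the control arrays.

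Partners of the kinesins were counted in the averaged comparison, in which 37.6% of all genes were lower and 31.6% higher. Of 31 mitosis genes 30 were lower and 0 higher, with a median of -3.69 against -0.12 for all genes. Of 16 tubulins, the subunits of the track, 13 were lower and 0 higher (median -1.36), led by Tuba1a at -4.93 ± 0.14 (adjusted p = 2.56e-07). Of 22 intraflagellar transport genes 17 were lower and 1 higher (median -1.50), the higher one being Ift20 at 1.17 ± 0.15. Of 23 genes of dynein, the motor of the opposite direction, and its cofactor dynactin, 15 were lower and 2 higher (median -0.94). Of 13 kinesin light chains and adaptors 6 were lower and 3 higher (median -0.34), which is near those shares. Here the light chains Klc3 and Klc4 moved apart, at -2.71 ± 0.13 and 1.46 ± 0.13. Of 3 minus-end kinesins 2 were lower, with Kifc5b, a spindle motor, at -2.89 ± 0.25.

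The difference of the IL1-beta effects between the sexes, which the design implies, passed for 5 of 27 members as labelled, against 14.3% of all genes. All 5 differences, females minus males, were above 0, where 8.61% of all genes passed above 0 and 5.65% below it. They were Kif1a (2.42 ± 0.41, adjusted p = 0.013), Kif5c (1.59 ± 0.31, adjusted p = 0.0204), Kif1c (1.61 ± 0.33, adjusted p = 0.0229), Kif16b (1.17 ± 0.30, adjusted p = 0.0459) and Kif23 (1.51 ± 0.39, adjusted p = 0.0466). With the control sign turned, 0 of 27 passed in limma, against 3.66% of all genes. At an unadjusted p under 0.05 there were then 9 of 27, against 20.4% of all genes. As labelled, 0 passed without male IL1-beta 1. It was 1 without male control 1 or male control 2, 2 without male IL1-beta 2 or female control 2, 3 without female IL1-beta 1 or female IL1-beta 2 and 4 without female control 1. Of all genes, 5.45% to 10.3% passed with 1 array left out. These 5 members are among the 7 that differed between the control arrays, which enter both comparisons.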

How the data were processed

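Liver RNA was measured on 8 arrays of 2 colours. The authors deposited log10 ratios of the 2 channels for 45018 features. The base was not stated and was taken from the scanner software's usual ratio. Agilent Feature Extraction is named, per the submitters' processing notes. The sources used here do not give its version, background correction or dye normalization. The ratios were put on the log2 scale with a factor of 3.32, and values of exactly 0 were left out as missing. Probes with 1 gene symbol in GEO's platform annotation (33653 probes, 56 with several and 11309 with none) and a value on all 8 arrays were averaged per gene. The 4 group means were fitted with limma 3.58.1 (R 4.3.3) and tested with eBayes, with 4 residual degrees of freedom and a prior of 2.88, in two-sided tests and Benjamini-Hochberg adjustment over 15346 genes. Promoters and gene names came from RefSeq on GRCm38.p6. Simulated data in which 200 genes changed were used to test the fit.

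Members and lists were chosen with earlier results of these data known. Values on all 8 arrays were given for members called in any comparison, for the 3 highest and 3 lowest of each role and for members with unlike probes. At most 3 genes were named per other list. Alternatives were array centring, quantile normalization, zeros kept, partly measured probes, the probe with the highest mean ratio, trend and robust eBayes, a replicate block, a threshold of 0.10, fewer arrays in the fit, leaving out each array, the control sign turned, and other role groups or means. Same-numbered arrays did not deviate together (r of -0.43 to 0.045). Within a treatment they deviated in opposite directions, with r of -0.407 between female and male IL1-beta arrays and -0.43 between female and male control arrays. For the other pairs of groups r was -0.039 to 0.045. Within a treatment, arrays of the 2 sexes may thus not be independent. Either unlike-numbered arrays deviated together or same-numbered arrays were linked with opposite sign, which these values do not separate. Control arrays of unlike sex correlated at -0.722 and -0.592 where same-numbered and at -0.519 and -0.478 where unlike-numbered. A block with crossed numbers was also run. The number of arrays, 2 in each group, limits the precision.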

Additional observations from a re-analysis of the deposited data

Results flagged for a closer look

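In 5 kinesins the IL1-beta effect as labelled differed between females and males in the limma test of that difference, 5 of 27 against 14.3% of all genes, which is near the background. Kif1a differed by 2.42, since it was higher by 2.73 in females and 0.31 in males. Kif1c differed by 1.61, with 1.45 in females and -0.17 in males. Kif5c differed by 1.59, with -1.69 in females and -3.28 in males. Kif23 differed by 1.51, with -2.17 in females and -3.68 in males. Kif16b differed by 1.17, with -0.59 in females and -1.76 in males. On the IL1-beta arrays alone these 5 differed between the sexes by 0.52, 0.77, 0.05, 0.14 and 0.19 in the same order, and none passed. With the control sign turned the same 5 differences were -1.37, -0.07, -1.48, -1.23 and -0.79, and none passed (adjusted p of 0.0542 or more). With probes measured only in part included, Kif5c was at -0.48 in females (adjusted p = 0.16), and its difference between the sexes was 0.88 (adjusted p = 0.169).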

How the results depend on the processing

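The 8 mitotic members were lower than control in both sexes with the control direction turned too. Under quantile normalization Kif23 in females (-0.85, adjusted p = 0.116) and Kif22 in males (-0.99, adjusted p = 0.247) did not pass. No kinesin passed for the sex difference under IL1-beta in any alternative. The counts of 23 (females), 21 (males) and 23 (average) stand against 57.2%, 61.5% and 69.2% of all genes. Those for the control sex difference (7) and for the difference of the IL1-beta effects (5) stand against 21.4% and 14.3%. The latter 2 counts changed whichever array was left out. Leaving out an array leaves 1 array in its group, and the shares of all genes moved too, so such changes are not particular to the kinesins.

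Quantile normalization gave 14 calls in females (33.1% of all genes), 14 for the control sex difference (44.1%) and 9 for the difference of effects (26.7%). The other counts for the control sex difference were 4 with the probe of highest mean ratio (19.9% of all genes), 12 at a threshold of 0.10 (31.5%) and 3 with control arrays only (13.4%). For the difference of effects they were 3 with zeros kept (8.57%), 2 with partly measured probes (12.1%), 3 with the probe of highest mean ratio (12.2%), 8 at a threshold of 0.10 (23.2%) and 0 with the control sign turned (3.66%). Although same-numbered arrays did not deviate together, a replicate block was run, and it moved only 2 counts by over 1.5 times. It gave 4 calls for the control sex difference (15.9%) and 3 for the difference of effects (9.01%). With crossed numbers, chosen after seeing the data, these counts were 6 (22.4%) and 4 (15.3%).

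The mitotic minus transport gap stayed below 0 in all settings run. In females it was -2.77 (quantile), -3.11 (zeros kept), -3.51 (other role groups), -3.89 (means) and -2.99 (all members measured on the IL1-beta arrays, chosen after seeing the data). In males it was -2.39 (quantile) and -2.85 (all such members). With each array left out it lay at -3.70 to -3.54 (females) and -3.66 to -3.09 (males).

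Directions turned as follows, and the cause was not tested. With the probe of highest mean ratio, Kif16b in females was at 0.54, and in males Kif21b, Kif3b and Kif3c were at 2.20, 0.15 and 1.40, or 0.77, 0.31 and 1.23 on average. Under quantile normalization Kif16b in females was at 0.17. By construction, turning the control sign turned the control sex differences, to 0.98 (Kif16b), 1.90 (Kif1a), 0.84 (Kif1c), 1.37 (Kif23), 0.64 (Kif3b), 1.53 (Kif5c) and -0.98 (Kif24). It also turned Kif24 in females to 0.07, and the differences of effects to -0.79 (Kif16b), -1.37 (Kif1a), -0.07 (Kif1c), -1.23 (Kif23) and -1.48 (Kif5c).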
